A study of Homo sapiens with 15 samples.

Results

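The long intergenic noncoding RNA (lincRNA) probes examined here were the non-control probes of an Agilent expression array whose design name begins with lincRNA and carries a region of the human hg19 build and a strand. There were 8263 such probes among 42405 non-control probes. A probe was kept when the scanner software marked its green signal as well above background on every array of at least 1 of the 2 groups compared. This left 2135 lincRNA probes, of which 1581 were well above background on all arrays of both groups, 223 on all NCE arrays alone and 331 on all CYGB+ arrays alone. A probe kept through 1 group alone was chosen partly because the groups differed, so such probes are counted apart below.

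The cells were PE/CA-PJ41, an established line from a human oral squamous cell carcinoma. CYGB+ cells carried the pCMV6-Neo plasmid with the human cytoglobin (CYGB) cDNA, and NCE cells are labelled as carrying an empty transfection vector, while the study's text elsewhere calls the NCE control un-transfected, so what NCE controls for is not settled. Stable clones were picked with cloning rings under G418 sulfate, and the study's methods give the CYGB+ cells on the arrays as the single clone LST421, so clone and transgene cannot be told apart. Both groups grew for 24 h in supplemented medium before RNA was taken on 3 occasions, which gave 3 biological replicates per group. Each NCE replicate was hybridised to 3 arrays and each CYGB+ replicate to 2, 15 arrays in all, and the arrays of a replicate were averaged so that n = 3 against 3.

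lincRNAs are transcripts without a long reading frame that are read from between protein-coding genes. They are usually spliced and polyadenylated by the machinery that makes messenger RNA, are often retained in the nucleus, and are turned over there by the RNA exosome. Some act on chromatin through partners such as Polycomb complexes, and others host small nucleolar RNAs or bind microRNAs and proteins. Squamous carcinoma cells express many of them at low abundance, and for most regions on an array of this kind no function is known.

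The CYGB probe was read first, since it is the transgene. Its log2 signal was 11.85, 12.15 and 11.96 in the 3 NCE replicates and 11.38, 12.44 and 11.97 in the 3 CYGB+ replicates. The groups overlapped, and the difference of -0.05 (SE 0.25, limma adjusted p = 0.906) gave no rise in the arrays labelled CYGB+. The title of the series calls NCE cells non cytoglobin expressing, yet this probe was well above background on all 9 NCE arrays. The place of this probe relative to the transfected cDNA is not given, so it may check nothing. Directions below are therefore those of arrays labelled CYGB+ against arrays labelled NCE. Of 12 squamous epithelial markers, 12 were kept, with SFN at a log2 signal of 15.01 in NCE and 15.15 in CYGB+, while 0 of 5 endothelial, 2 of 8 fibroblast and 2 of 7 leukocyte markers were.

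The arrays lay on 2 slides that did not hold the groups evenly. Slide 1 held 8 NCE arrays, and slide 2 held array 3 of NCE replicate 1 and all 6 CYGB+ arrays. Local green background was 24 to 29 units on slide 1 and 37 to 43 units on slide 2. A difference between slides can therefore be separated from a difference between groups only through that 1 NCE array. The dyes are not settled either: the labels give Cy3 for every sample, the study's methods give cyanine 5 for the control cells and cyanine 3 for the CYGB+ cells, and the files hold both colours. The green channel is taken here as the labelled sample, and if the methods held for these arrays the green signal of the NCE arrays might not be NCE RNA. In addition, 3 arrays correlated less with the rest of their group over the kept lincRNA probes than all others did, with a median r of 0.883 for the first array of CYGB+ replicate 1, 0.932 for the second array of CYGB+ replicate 3 and 0.934 for the second array of NCE replicate 3. Main counts without these 3 arrays are given after the counts they belong to.

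lincRNA probes were detected less often than the other probes of the array. On single arrays, 2435 to 3666 lincRNA probes were well above background. NCE replicates 1, 2 and 3 had 32.2%, 29.7% and 35.4% of the lincRNA probes well above background, averaged over their arrays, and CYGB+ replicates 1, 2 and 3 had 32.4%, 36.2% and 40.1%. The groups overlapped, and the difference of 3.81 percentage points had an exact permutation p of 0.20 (two-sided), where 3 against 3 allows no p below 0.10. Within same-numbered replicates the differences were 0.198, 6.51 and 4.73 points, all of 1 sign, and the exact paired p, added after the values were seen, was 0.25, the lowest that 3 pairs allow. Of the other probes, NCE replicates 1, 2 and 3 had 54.1%, 52.9% and 56.7% well above background. CYGB+ replicates 1, 2 and 3 had 53.9%, 55.7% and 58.9% of them. Across the whole array 25.8% of lincRNA probes were kept, against 51.2% of the other probes and 61.5% of the probes with a protein-coding RefSeq gene. Probes with a RefSeq lncRNA gene, which carry no lincRNA region name, were kept in 27.4% of cases. A further 3349 lincRNA probes were well above background on no array.

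**Figure D1:**
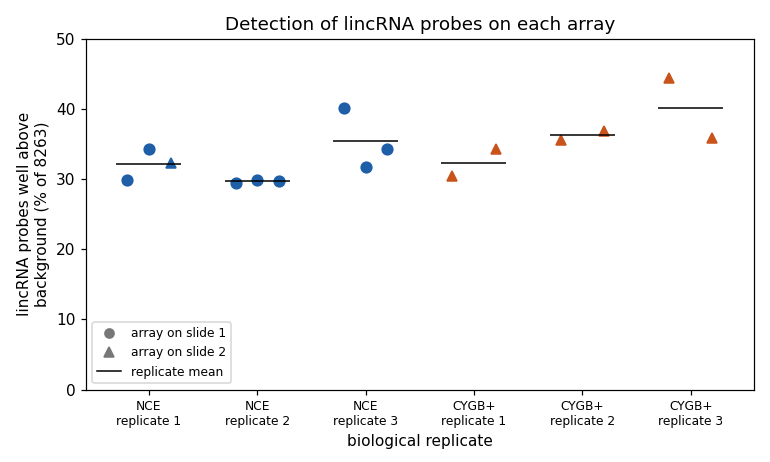
Share of the lincRNA probes well above background (vertical axis, percent) on each array, by biological replicate; points are arrays, circles for slide 1 and triangles for slide 2, and bars are replicate means. CYGB+ replicate 3 had the highest mean, 40.1%, and NCE replicate 2 the lowest, 29.7%.

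The kept lincRNA probes were dim as a class. Their median log2 signal in NCE was 7.07, on a scale where the lowest kept probe had 6.07 and the highest 16.37. Of all kept lincRNA probes, 45.8% had a mean log2 signal under 7, against 22.1% of all kept probes. Dim probes often crossed the detection limit in 1 group alone, which was the case for 25.9% of kept lincRNA probes and 9.16% of the other kept probes. Another 388 lincRNA probes missed the rule by 1 array, and their median log2 signals were 6.4 in both groups, just below the 6.50 in NCE and 6.55 in CYGB+ of the probes kept through 1 group. The median SD between replicates was 0.12 in NCE and 0.19 in CYGB+.

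Detection differed by chromosome and by the length of the annotated region. Chromosome 20 had the highest share of its lincRNA probes kept, 43.1% (59 of 137, in 23 loci). Chromosome 17 followed with 37.9% and chromosome X with 33.3%. The lowest shares were 16.2% on chromosome 15 (43 of 265) and 18.5% on chromosome 14. With the probes split by region length into 4 sets of near equal number, from 70 to 5851 bases up to 32754 to 1392201 bases, the share kept was 29.3%, 27.2%, 24.9% and 22.0%. Strand made little difference, with 26.4% of forward and 25.3% of reverse probes kept. The 2135 kept probes fell in 1117 of 2441 loci, a locus being a run of overlapping regions on either strand.

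Of the 2135 kept lincRNA probes, 98 rose and 58 fell in the arrays labelled CYGB+ (limma, adjusted p under 0.05 over all 19605 probes tested), 4.59% and 2.72% of them and 7.31% together. Over all 19605 probes 12.1% were called, 6.11% higher and 5.95% lower. Of the 17470 other kept probes 6.29% rose and 6.35% fell. Among the 1581 lincRNA probes kept through both groups, 81 rose and 51 fell (5.12% and 3.23%), 8.35% of them against 12.4% of all 17451 such probes (6.19% and 6.22%). Of the called lincRNA probes, 76 were past 1.5-fold (3.56%, against 7.19% of all kept probes and 7.64% of the other kept probes). Past 2-fold there were 15 (0.703%, against 1.48% and 1.58%). Among probes kept through both groups, 4.55% of lincRNA probes were past 1.5-fold (all probes 7.48%) and 0.949% past 2-fold (all probes 1.53%). The replicates of the groups did not overlap in 610 lincRNA probes (28.6%), against 34.9% of all and 35.7% of the other kept probes, or 26.8% against 34.2% among those kept through both groups. The share called varied with signal, from 3.28% of lincRNA probes with a mean log2 signal under 7 to 10.8% between 7 and 8 and 12.4% between 8 and 10, and was lower again, 7.58%, at 10 and above. In the same ranges 6.51%, 11.7%, 15.3% and 13.3% of all kept probes were called. The shares called moved with the signal used. On dye-normalised signals 216 of the 2135 lincRNA probes were called, against 11.5% of all kept probes. On background-subtracted signals 213 were called, against 11.4%. Among lincRNA probes kept through both groups, 131 were called on either signal. Fold counts above are of the main signal, which holds an offset of 50. In the main fit the median log2 difference was 0.04 over kept lincRNA probes and 0.01 over all kept probes.

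The main counts depended on single replicates. Without NCE replicate 2, 13 lincRNA probes rose and 7 fell (2.66% of all kept probes called), and without NCE replicate 3 15 rose and 8 fell (2.67% of all). The counts were 48 and 24 without NCE replicate 1 (5.98% of all), 61 and 61 without CYGB+ replicate 2 (8.59%), and 51 and 32 without CYGB+ replicate 3 (6.85%). Without CYGB+ replicate 1 they moved little, to 94 and 50 (12.3%). The share of all kept probes thus moved with the lincRNA counts. Without the 3 arrays that stood apart, 218 rose and 120 fell (25.3% of all kept probes called), and without the first array of CYGB+ replicate 1 alone 155 rose and 92 fell (20.7%). Leaving out the second array of NCE replicate 3 gave 105 and 88 (13.8%). With the replicate number as a block, 156 rose and 95 fell, 11.8% of kept lincRNA probes against 16% of all kept probes, and 9 of the 156 main calls were lost, 5 rises and 4 falls.

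Called probes were read again within slide 2, where 1 NCE array stands for its group, so these values are a description. There, 93 of the 98 probes that rose were still higher in CYGB+, with a median log2 difference of 0.50 against 0.57 over all arrays, and 83 of them kept at least 50% of their size. Of the 58 that fell, 45 were still lower within slide 2, with a median of -0.35 against -0.63, 31 kept at least 50% of their size and 13 turned to the opposite sign. Without the arrays that stood apart, 94 rises and 37 falls kept their sign within slide 2, with medians of 0.44 and -0.27, and 21 falls turned. With slide as a term in a fit over arrays, 19 lincRNA probes rose and 14 fell, and 31 of these 33 were among the main calls, 19 of the rises and 12 of the falls. Without the arrays that stood apart that fit gave 295 rises and 100 falls (22.7% of all kept probes called). Its group difference rests on the same single NCE array, so no single call is read from it. With all arrays it called 3.62% of all probes, 3.88% of the other kept probes and 1.55% of kept lincRNA probes, or 1.71% of those kept through both groups. The NCE array on slide 2 had a median r of 0.961 with the other NCE arrays and 0.968 with the CYGB+ arrays over the kept lincRNA probes. Over all kept probes the order was the other way, 0.982 and 0.976. In NCE replicate 1, slide 2 minus slide 1 had a median of -0.05 over kept lincRNA probes (5th to 95th percentile -0.84 to 0.51). Across these 2135 probes it correlated with the main difference at r = 0.52, against 0.28 over the 17470 other kept probes, and the values share the NCE replicate 1 arrays. Whether slide bore more on falls than on rises was not tested.

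**Figure D2:**
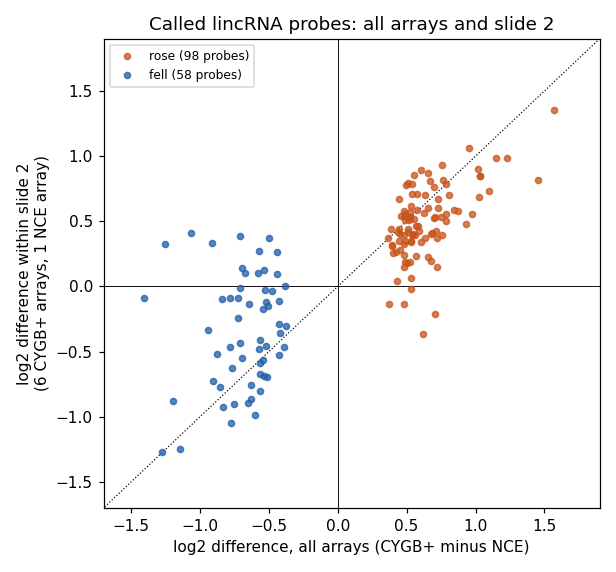
Log2 difference of each called lincRNA probe over all arrays (horizontal axis) and within slide 2, where 6 CYGB+ arrays stood against 1 NCE array (vertical axis); the dotted line marks equal values. Of 98 rises, 93 stayed above 0 within slide 2, and of 58 falls, 45 stayed below 0.

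The 12 greatest rises and the 12 greatest falls were picked among called probes whose groups did not overlap. Lack of overlap in them was thus a condition of choice and is not support. Among probes well above background on all arrays, the rise with the greatest size was on chromosome 5. A_19_P00804228, in chr5:108527309-108533551 on the forward strand, had log2 signals of 8.26, 8.29 and 7.95 in NCE and 10.19, 9.62 and 9.41 in CYGB+. All 3 CYGB+ replicates lay above all 3 NCE replicates, a log2 difference of 1.57 (SE 0.21, limma adjusted p = 0.00665). A second probe of this region, A_19_P00807230, read 8.07, 8.03 and 7.91 in NCE and 9.34, 9.09 and 9.02 in CYGB+. Its difference was 1.15 (SE 0.12, limma adjusted p = 0.00408), again without overlap. The probes differed by 1.35 and 0.99 within slide 2. On the same chromosome, A_19_P00318587 in chr5:108063520-108063994 on the reverse strand read 6.88, 6.58 and 6.57 in NCE and 7.97, 7.80 and 7.54 in CYGB+. It rose by 1.10 (SE 0.15, limma adjusted p = 0.00677), with 0.73 within slide 2.

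On chromosome 3, probes of overlapping reverse-strand regions rose. A_19_P00326763 in chr3:112308735-112318605 read 6.81, 6.81 and 6.74 in NCE and 7.93, 7.78 and 7.75 in CYGB+, a rise of 1.03 (SE 0.10, limma adjusted p = 0.00387). A_19_P00317484 in chr3:112315643-112316945 read 6.90, 6.78 and 6.74 in NCE and 8.12, 7.77 and 7.63 in CYGB+, also a rise of 1.03 (SE 0.14, limma adjusted p = 0.00723). Neither probe's groups overlapped, and both differed by 0.85 within slide 2. The other kept probe there, A_19_P00804825, kept through CYGB+ alone, differed by 0.39 without a call (adjusted p = 0.0530) and by 0.47 within slide 2.

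Regions on chromosomes 2 and 4 held rises of about the same amount. A_19_P00317856 in chr2:217384052-217394177 on the forward strand read 7.04, 6.92 and 6.98 in NCE and 8.10, 8.03 and 7.87 in CYGB+, a rise of 1.02 (SE 0.11, limma adjusted p = 0.00408). A_19_P00315717 in chr4:15685948-15688226 on the forward strand read 9.16, 8.82 and 9.35 in NCE and 10.30, 9.92 and 9.98 in CYGB+, a rise of 0.96 (SE 0.17, limma adjusted p = 0.0139). The differences within slide 2 were 0.90 and 1.06, and the groups did not overlap in either. The chromosome 4 probe lies in a locus with 21 kept probes, and the other 20 had smaller differences. A_19_P00315718, of the same region and strand, differed by 0.50 without a call (limma adjusted p = 0.0688). With the replicate number as a block limma called it (adjusted p = 0.0442), and within slide 2 it differed by 0.28. A_19_P00322856 in chr4:15687889-15690522 rose by 0.68 (limma adjusted p = 0.0275) but differed by 0.20 within slide 2.

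All named rises but A_19_P00315717 were smaller within slide 2 than over all arrays, also on chromosomes 8 and 10. A_19_P00803226 in chr8:144359650-144364750 on the reverse strand read 8.51, 7.89 and 8.22 in NCE and 9.82, 9.59 and 9.57 in CYGB+, a difference of 1.45 (SE 0.17, limma adjusted p = 0.00470). The NCE array on slide 2 read 8.85, above the mean of every NCE replicate, and the difference within slide 2 was 0.81. A_19_P00322339 in chr10:6821559-6884863 on the forward strand read 7.33, 6.77 and 6.59 in NCE and 7.95, 8.31 and 8.11 in CYGB+. It rose by 1.23 (SE 0.20, limma adjusted p = 0.0111), with 0.99 within slide 2.

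A second region of chromosome 5 held falls of much the same size within slide 2 as over all arrays. A_19_P00810361 in chr5:66985594-66997719 on the reverse strand read 10.38, 10.49 and 10.29 in NCE and 8.84, 9.16 and 9.33 in CYGB+, a fall of -1.28 (SE 0.14, limma adjusted p = 0.00455). A_19_P00812215 of the same region read 10.08, 10.10 and 10.02 in NCE and 8.64, 8.98 and 9.13 in CYGB+, a fall of -1.15 (SE 0.14, limma adjusted p = 0.00507). The groups did not overlap in either probe. The NCE array on slide 2 read 10.38 and 10.17, close to the other NCE values, and the differences within slide 2 were -1.27 and -1.25.

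Chromosome 3 also held a fall. A_19_P00322895 in chr3:98700195-98701767 on the forward strand read 7.56, 7.78 and 8.08 in NCE and 6.99, 6.69 and 7.03 in CYGB+, a fall of -0.90 (SE 0.16, limma adjusted p = 0.0154). A_19_P00316467 in the overlapping region chr3:98700043-98701392 read 7.35, 7.59 and 7.78 in NCE and 6.64, 6.60 and 6.92 in CYGB+, a fall of -0.85 (SE 0.15, limma adjusted p = 0.0136). In both, every CYGB+ replicate lay below every NCE replicate. Within slide 2 they differed by -0.73 and -0.77. A_19_P00317447, on the same strand of an overlapping region, differed by -0.55 without a call (adjusted p = 0.324) and by 0.32 within slide 2.

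For other falls the NCE array on slide 2 stood with the CYGB+ arrays. A_19_P00328785 in chr1:180915452-180923811 on the forward strand read 10.41, 10.45 and 10.88 in NCE and 9.52, 9.31 and 8.70 in CYGB+, a fall of -1.40 (SE 0.23, limma adjusted p = 0.0111). Its NCE array on slide 2 read 9.26, inside the CYGB+ range, and the difference within slide 2 was -0.09. A_19_P00812846, on the same strand of an overlapping region, differed by -0.02 without a call (adjusted p = 0.933) and by -0.57 within slide 2. A_19_P00331576 in chr3:114043485-114052926 on the forward strand read 8.48, 8.90 and 8.81 in NCE and 8.06, 7.55 and 8.05 in CYGB+. It fell by -0.84 (SE 0.18, limma adjusted p = 0.0250) and differed by -0.10 within slide 2, where its NCE array read 7.98, also inside the CYGB+ range. A_19_P00330038 in chr2:131595455-131614380 on the forward strand read 9.57, 10.06 and 9.64 in NCE and 8.25, 9.01 and 8.26 in CYGB+, a fall of -1.25 (SE 0.23, limma adjusted p = 0.0170). Its NCE array on slide 2 read 8.18, below all CYGB+ replicates. A_19_P00324411 in chr12:122243692-122252067 on the forward strand fell by -1.07 (SE 0.18, limma adjusted p = 0.0120), from 9.68, 10.01 and 9.73 to 8.58, 9.11 and 8.53. A_19_P00806410 in chr10:6779694-6889494 on the reverse strand fell by -0.91 (SE 0.22, limma adjusted p = 0.0354), from 10.09, 10.40 and 10.04 to 9.01, 9.76 and 9.02. The last 3 probes, A_19_P00330038, A_19_P00324411 and A_19_P00806410, had the same profile over the CYGB+ replicates, lowest in replicates 1 and 3, and turned to 0.32, 0.41 and 0.33 within slide 2. Without the arrays that stood apart the differences within slide 2 were 0.74, 0.85 and 0.80. These rest on 1 NCE array and on a choice made after the values were seen, so the direction of these 3 probes is unsettled.

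Another 2 named falls were smaller within slide 2 and kept their sign. A_19_P00806947 in chrX:45897556-45923781 on the reverse strand read 12.59, 13.12 and 13.10 in NCE and 11.89, 11.94 and 12.16 in CYGB+, a fall of -0.94 (SE 0.16, limma adjusted p = 0.0142) with -0.34 within slide 2. A_19_P00807665 in chr5:9547425-9554550 on the forward strand read 9.14, 9.09 and 9.01 in NCE and 7.93, 8.43 and 8.24 in CYGB+. It fell by -0.88 (SE 0.14, limma adjusted p = 0.0106) and differed by -0.52 within slide 2. The groups did not overlap in either. In both the NCE array on slide 2 read below every NCE replicate mean, at 12.33 and 8.72.

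**Figure D3:**
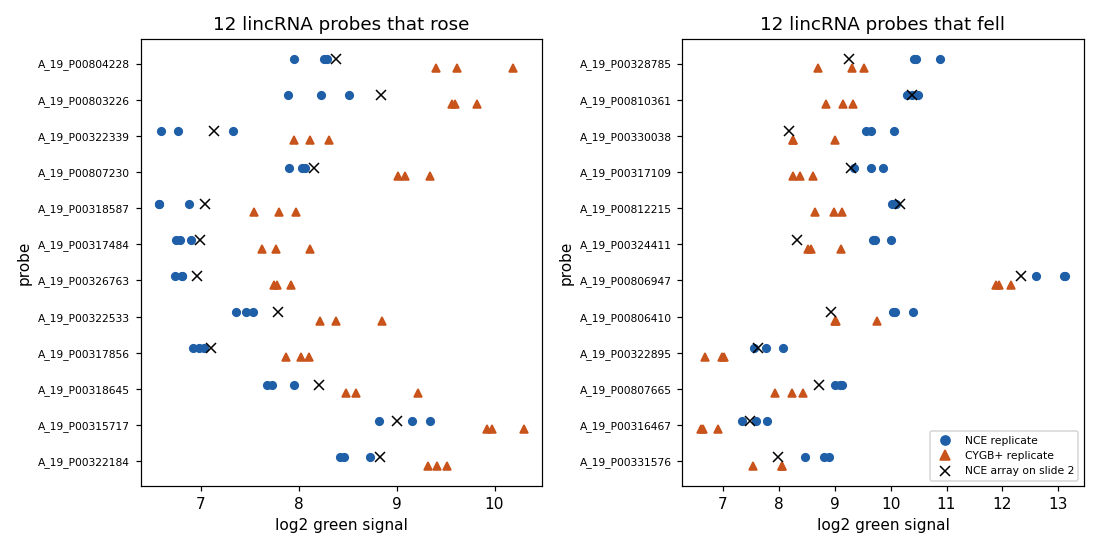
Log2 green signal (horizontal axis) of the 12 lincRNA probes with the greatest rise and the 12 with the greatest fall. They were picked among called probes well above background on all arrays whose groups did not overlap. Circles are NCE replicates and triangles CYGB+ replicates. Crosses are the single NCE array on slide 2, which is also part of NCE replicate 1. In the falling probes A_19_P00330038, A_19_P00324411 and A_19_P00806410 the cross reads 8.18, 8.32 and 8.93, away from the NCE circles.

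The 156 called probes lay in 111 of the 1117 loci with a kept probe. Of 465 loci with 2 or more kept probes, 28 had 2 or more called probes, of which 24 were called in 1 direction and 4 in both. Whether calls gathered in loci more than the kept probes did was not tested. The 8 loci with 3 or more called probes are described here, since places 4 to 8 were tied. On chromosome 9, chr9:132092579-132121817 had 14 kept probes, 7 on each strand. All 7 forward probes rose, by 0.51 to 0.88, and 0 of the 7 reverse probes was called. With the replicate number as a block limma called 1 reverse probe, A_19_P00321865, as a rise (0.39, adjusted p = 0.0779 and 0.0488 with the block). The strands cannot be set against each other here, since 6 of the 7 reverse probes were kept through CYGB+ alone, with NCE means of 6.15 to 6.54, and 6 of the 7 differences were above 0, by 0.21 to 0.39. The forward probe with the greatest rise, A_19_P00322184, read 8.73, 8.42 and 8.47 in NCE and 9.41, 9.51 and 9.32 in CYGB+, without overlap (difference 0.88, SE 0.12, limma adjusted p = 0.00723). Its difference was 0.58 within slide 2. A second chromosome 9 locus, chr9:132247654-132275963, had 3 forward probes that rose among 17 kept, by 0.53, 0.48 and 0.43, with 0.35, 0.33 and 0.04 within slide 2.

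The locus chr6:86381806-86396056 on chromosome 6 was covered by 37 kept probes, 27 on the reverse strand and 10 on the forward strand. Of the reverse probes 7 rose, by 0.37 to 0.72, and 0 forward probes were called. Within slide 2 these 7 ran from -0.13 to 0.51, 4 of them under 50% of their size, and 1 of these 4, A_19_P00319095, had the opposite sign. With the replicate number as a block that probe lost its call (adjusted p = 0.0495 and 0.0658 with the block). A_19_P00317558 in chr6:86387201-86388404 read 9.78 ± 0.13 in NCE and 10.50 ± 0.10 in CYGB+ (SD, n = 3), a rise of 0.72 (SE 0.11, limma adjusted p = 0.01). Within slide 2 the median difference over the 37 probes was 0.03, with 21 of them above 0. A_19_P00321546 had a larger difference, 1.52, that was not called (SE 0.69, limma adjusted p = 0.190), and its NCE replicates had an SD of 1.56.

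On chromosome 16, chr16:54952774-54959098 had 3 kept reverse-strand probes, and all 3 rose. A_19_P00322533 read 7.54, 7.36 and 7.46 in NCE and 8.85, 8.22 and 8.38 in CYGB+, a rise of 1.03 (SE 0.17, limma adjusted p = 0.0114). A_19_P00318645 read 7.95, 7.72 and 7.68 in NCE and 9.22, 8.48 and 8.58 in CYGB+, a rise of 0.98 (SE 0.20, limma adjusted p = 0.0229). CYGB+ replicate 1 was the highest in both, and neither probe's groups overlapped. The differences were 0.69 and 0.56 within slide 2.

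On chromosome 7, chr7:130528285-130800860 had 18 kept probes. The reverse probes A_19_P00321361 in chr7:130628924-130629917 and A_19_P00321885 and A_19_P00321886 in chr7:130628925-130794653 rose, by 0.66, 0.81 and 0.48, with 0.60, 0.70 and 0.39 within slide 2. 1 reverse probe, A_19_P00318230, fell by -0.43 and differed by -0.11 within slide 2. On chromosome 4, chr4:6657715-6687449 had 3 reverse probes that rose, by 0.39 to 0.54, among 7 kept, but all 3 were kept through CYGB+ alone, so their rise is not support for the locus. On chromosome 1, chr1:205404014-205417676 had 4 kept probes, of which 2 kept through both groups fell and 1 kept through NCE alone, A_19_P00323819, also fell but lost its call with the replicate block (adjusted p = 0.0551), led by A_19_P00319808 at -0.77 (SE 0.12, limma adjusted p = 0.00996), and that probe differed by -1.05 within slide 2. The chromosome 6 locus chr6:30255819-30293571 had 16 kept probes, of which 1 rose and 2 fell. Both falling probes were near 0 within slide 2, at -0.03 and -0.01.

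**Figure D4:**
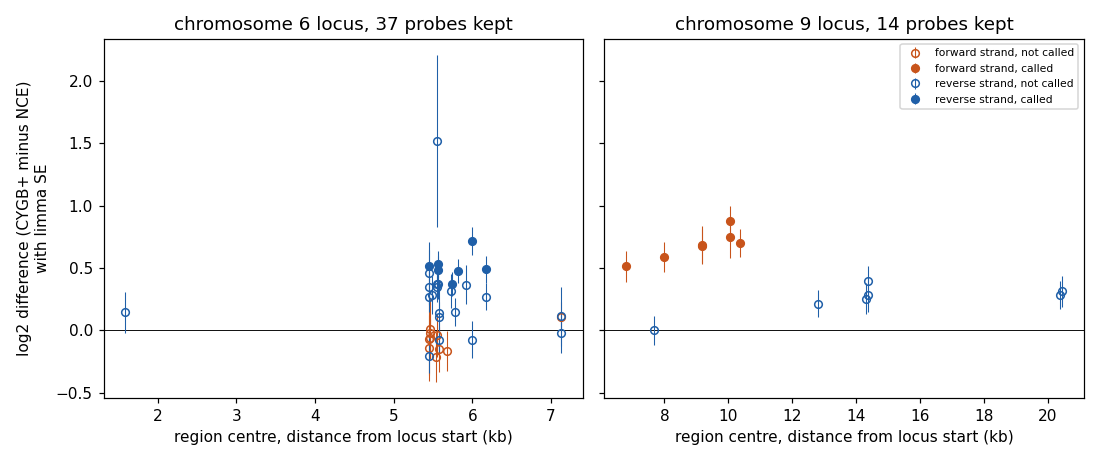
Log2 difference with limma SE (vertical axis) of each kept probe of the 2 loci with 7 called probes, by distance of its region's centre from the start of the locus in kilobases (horizontal axis); orange is the forward and blue the reverse strand, and filled points were called. In the main fit all 7 called probes of the chromosome 9 locus are forward and all 7 of the chromosome 6 locus reverse. With the replicate block the reverse probe A_19_P00321865 of the chromosome 9 locus was also called, and A_19_P00319095 of the chromosome 6 locus was not.

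Probes of a shared region and strand were set side by side, and so were the strands of a region. Of 164 region and strand names with 2 or more kept probes, 117 had the same sign in all their probes, with a median range of 0.14 between probes. In 26 of these names at least 1 probe was called; 25 of them had the same sign throughout, 11 had every probe called in 1 direction, and 0 had probes called in opposite directions. Of 125 names with 2 or more probes kept through both groups, 91 had the same sign throughout. Further, 2114 regions had probes on both strands, and both strands were kept in 200, 1 strand in 733 and neither in 1181. Across the 200 regions the difference on the forward strand and that on the reverse strand had the same sign in 105, with Pearson r = 0.06 and Spearman rho = 0.04. These are descriptions across regions that share the same arrays. In 20 of the 200 regions 1 strand was called, and in 0 were both. In the 126 regions where both strands were kept through both groups, the sign was the same in 64, r was 0.07 and rho 0.02, and 1 strand was called in 15 and both in 0. Whether strands differed more than probes of 1 strand was not tested, and with few calls overall 0 shared calls says little.

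Chromosome 20 stood out among the lincRNA probes. Its 59 kept probes had a median log2 difference of -0.20, where the medians of the other 22 chromosomes ran from -0.08 (chromosome 21) to 0.14 (chromosome 4). On chromosome 20, 0 probes rose and 9 fell, and 39 of the 59 differences were below 0. The 59 probes lay in only 23 loci, so these counts are not of independent probes. The locus chr20:37037086-37082161 held more of them than any other. Of the 9 falls, 1 was kept through NCE alone. Relative to each probe's NCE mean, the chromosome 20 median was -0.25, -0.08 and -0.27 in CYGB+ replicates 1, 2 and 3, and between -0.03 and 0.02 in the NCE replicates. Without the 3 arrays that stood apart the median was -0.15, and within slide 2 it was -0.04. The fall with the greatest size was in chr20:34633543-34635214 on the reverse strand, where A_19_P00317109 read 9.35, 9.64 and 9.86 in NCE and 8.39, 8.26 and 8.60 in CYGB+. It fell by -1.20 (SE 0.16, limma adjusted p = 0.00665), without overlap, and by -0.88 within slide 2. The second probe of that region, A_19_P00317108, fell by -0.63 (SE 0.14, limma adjusted p = 0.0281). In chr20:3850525-3857695, 2 of 6 kept probes fell and all 6 were below 0.

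Protein-coding gene probes of the same chromosomes give the setting. On chromosome 20, 432 gene probes had a median difference of -0.36 (-0.38 within slide 2), and 32.6% fell while 0.694% rose. Gene probes were lowest on chromosome 21, with a median of -0.58 and 63.2% that fell, whereas the 38 kept lincRNA probes there had a median of -0.08 with 3 falls and 0 rises. Of these 3 falls 2 were kept through NCE alone, 1 of which, A_19_P00808382, lost its call with the replicate block (adjusted p = 0.0516), and the median was 0.02 without the 3 arrays that stood apart and 0.06 within slide 2. On chromosome 14 the medians were -0.29 for gene probes and 0.00 for 41 lincRNA probes. On chromosome 5 they were 0.29 for gene probes, of which 29.7% rose, and 0.07 for 133 lincRNA probes, of which 9 rose (3 kept through CYGB+ alone) and 5 fell (1 kept through NCE alone). Across 23 chromosomes the medians of the 2 kinds of probe had Pearson r = 0.70 and Spearman rho = 0.58, or r = 0.65 without chromosome 20. The points share the same arrays and normalisation. Over probes with a mean log2 signal of at least 8, a limit chosen after the values were seen, the chromosome 20 medians were -0.28 for 24 lincRNA probes and -0.42 for 289 gene probes, and the chromosome 21 medians 0.02 for 10 lincRNA probes and -0.68 for 89 gene probes.

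**Figure D5:**
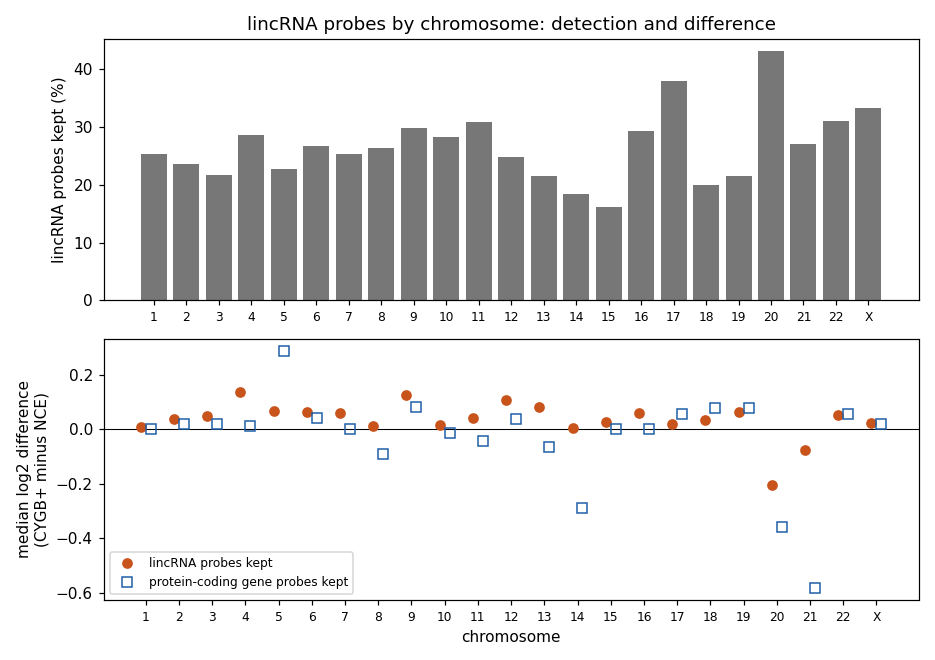
Share of lincRNA probes kept (upper panel, percent) and median log2 difference of kept lincRNA probes (filled circles) and protein-coding gene probes (open squares) by chromosome (lower panel). Chromosome 20 had the highest share kept, 43.1%, and the lowest lincRNA median, -0.20.

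Some chromosomes had more rises than falls. Chromosome 9 had 11 rises and 0 falls among 73 kept lincRNA probes, with a median of 0.13, and 10 of the 11 came from the 2 loci above. Chromosome 4 had 11 rises and 1 fall among 137, with a median of 0.14 and 0.15 within slide 2, and 3 of the rises were kept through CYGB+ alone. Relative to NCE its median was 0.25, 0.17 and -0.01 in CYGB+ replicates 1, 2 and 3, so replicate 3 did not share the lean, and that of chromosome 9 was 0.20, 0.17 and 0.03. Chromosome 6 had 15 rises, 2 of them kept through CYGB+ alone, and 4 falls among 199, and 7 of the 15 rises came from the locus chr6:86381806-86396056. Chromosome 12 had 0 rises and 2 falls among 83, with a median of 0.10, or 0.05 without the 3 arrays that stood apart. Its median was 0.09, 0.12 and -0.06 in CYGB+ replicates 1, 2 and 3 relative to NCE. Over all kept lincRNA probes 4.59% rose and 2.72% fell, and over all kept probes 6.11% and 5.95%. Of protein-coding gene probes 8.12% rose and 2.71% fell on chromosome 9, and 8.01% and 3.9% on chromosome 4. Their shares were 4.8% and 2.76% on chromosome 6 and 5.81% and 3.83% on chromosome 12. In the 4 sets by region length, 8.60%, 8.02%, 5.83% and 6.39% of kept lincRNA probes were called.

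Few lincRNA probes went from undetected to detected. 4 probes were well above background on all CYGB+ arrays and no NCE array, and 1 the reverse. For these the difference is a lower bound, set against the higher of the probe's own signal and the lowest signal of a probe well above background on each array of the dim group. A_19_P00317272 in chr2:114728210-114764776 was at least 1.26-fold higher in CYGB+ (limma adjusted p = 0.0422) and was the 1 called of the 5, a call that the replicate block ended (adjusted p = 0.0573). A_19_P00812965 in chrX:106895444-106901544, A_19_P00320828 in chr22:25851684-25907583 and A_19_P00810383 in chr11:82783427-82804838 were at least 1.20-fold, 1.19-fold and 1.13-fold higher. A_19_P00812647 in chr20:58658416-58659320 was at least 1.31-fold lower in CYGB+ (limma adjusted p = 0.0600).

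Long noncoding RNA genes with established names were read from their own probes, which are not lincRNA region probes. The lincRNA regions were not matched to genes, so a gene named here may be the transcript of a region described above. Its probe would then not be a separate finding. Of 54 listed genes 41 had a probe and 31 were kept; 8 rose and 1 fell, with a median difference of 0.29 against 0.01 over all kept probes, of which 6.11% rose and 5.95% fell. The list was picked by name, and all 271 kept probes with a RefSeq lncRNA gene split evenly, with 17 rises and 17 falls (12.5%). EPB41L4A-AS1, an snoRNA host transcript, read 9.94, 9.95 and 10.16 in NCE and 11.14, 11.05 and 11.17 in CYGB+ (difference 1.10, SE 0.11, limma adjusted p = 0.00387). DANCR, which also hosts an snoRNA, read 10.17, 10.23 and 10.13 in NCE and 11.05, 11.35 and 11.12 in CYGB+ (difference 1.00, SE 0.11, limma adjusted p = 0.00469). In neither did the groups overlap. SNHG8 rose by 0.89 (SE 0.13, limma adjusted p = 0.00766), with 0.54 within slide 2. The other rises were CRNDE (0.83), LINC-PINT (0.78), CYTOR (0.70), SNHG1 (0.61) and LINC00467 (0.48). With the replicate number as a block limma called 4 more of the list, SNHG3 as a rise (0.89, adjusted p = 0.0613 and 0.00984 with the block) and 3 as falls. These were H19 (-1.24, adjusted p = 0.0733 and 0.00920), TERC (-0.88, adjusted p = 0.0727 and 0.0122) and MEG3 (-0.53, adjusted p = 0.0868 and 0.0325). H19 had the difference of greatest size on the list, and within slide 2 it was -2.25, while MEG3 and TERC were at -0.03 and 0.06 there. Host genes of snoRNAs were not tested as a group. NORAD, a cytoplasmic RNA that binds Pumilio proteins, is on chromosome 20. It fell by -0.99 (SE 0.19, limma adjusted p = 0.0192) on 1 probe and differed by -0.90 without a call on the other (adjusted p = 0.0542).

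Lists of factors that act on noncoding RNA had few called genes, where 12.1% of all kept probes were called, and the lists are too short to set against that share. Of 27 kept genes of the nuclear exosome and its targeting complexes, EXOSC4, a subunit of the exosome ring, rose by 0.67 (SE 0.17, limma adjusted p = 0.0438), and PABPN1, the nuclear poly(A) binding protein, fell by -0.65 (SE 0.14, limma adjusted p = 0.0256). Of 28 kept genes of RNA polymerase II termination and Integrator, CSTF1, a cleavage factor subunit, fell by -0.46 and INTS8, an Integrator subunit, by -0.44 (adjusted p = 0.0220 and 0.0290). Of 17 kept Polycomb genes and partners limma called 0. The list medians were -0.10, -0.08 and -0.01. Of the 12 squamous markers limma called 2, ITGB4 with a fall of -0.66 (-0.31 within slide 2) and KRT6A with a fall of -0.46 (-0.02 within slide 2). Of the other 10, 5 were above 0 and 5 below, with KRT14 at 0.76 without a call (adjusted p = 0.0600), which the replicate block called (0.0123). Of the fibroblast genes, COL1A2 fell by -1.32 and COL1A1 differed by 0.10 without a call (adjusted p = 0.696), while 6 of 8 fibroblast markers, COL3A1 and DCN among them, were not kept.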

How the data were processed

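RNA from PE/CA-PJ41 clones was labelled with Cy3, per the labels (the study's methods give cyanine 5 for control cells), and hybridised to 15 Agilent arrays (9 NCE, 6 CYGB+). The deposited files hold intensity values and flags from Feature Extraction 10.7.3.1, per the file headers, and a deposited value table on a log2 scale whose centring is unstated. The processed green intensity was dye-normalised against a red channel of unlabelled content, so the median green and background signals were used, in place of the mean green signal planned before the files were seen, with normexp (offset 50), chosen here, and quantile normalisation, which the study's methods state. Outlier spots were set missing. Spots, then arrays of a replicate, were averaged. Probes well above background on every array of a group were tested with limma 3.58.1 (R 4.3.3), Benjamini-Hochberg adjusted over 19605 probes; the code was tested on simulated data. The array number limits precision. Accessions of 25422 of 42405 probes matched 1 RefSeq symbol (GRCh38.p14); a gene took its kept probe with the highest mean. Deviations of same-numbered replicates correlated at 0.22, 0.23 and 0.31, each above the 0.1 set as the rule for pairs. Differently numbered replicates ran from -0.52 to 0.31, so the pairing is weak. The main fit held no term for pairs, so its p-values are unpaired. Replicate numbers entered only the block alternative and the paired detection test. Named probes were the 12 greatest called rises and falls without overlap and detected on all arrays, bounds, loci with the most called probes (all ties) and the 3 greatest called rises and falls of each list. Members and lists were chosen with earlier results of these data known. Alternatives covered signal, scaling, filter, block, slide, the methods' t-test, left-out replicates and arrays, the value table and region means. The red channel was not used.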

Additional observations from a re-analysis of the deposited data

Results flagged for a closer look

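Array-level quantities were checked for a single array far from its group in 8 sets, and chance would flag about 1 in 20. The second array of NCE replicate 3 had a median r of 0.973 with the other NCE arrays over all kept probes and 0.934 over the kept lincRNA probes, both far below the rest. The first array of NCE replicate 3 had 3314 lincRNA probes well above background, the most of the NCE arrays. The first array of CYGB+ replicate 1 had a median r of 0.933 with the other CYGB+ arrays over all kept probes. The causes were not tested.

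The red channel, whose RNA the labels do not name and which the study's methods would assign to control cells, also carried signal at lincRNA probes. A median of 3159 of the 8263 probes per array were well above background in red (2494 to 3516), and these values were not used.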

How the results depend on the processing

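Of 98 rises and 58 falls among lincRNA probes, 120 calls were shared with the fit on dye-normalised signals, 129 with that on background-subtracted signals and 91 with that scaled to the 75th percentile. The 24 named probes were all called again with 75th percentile scaling, the replicate block, the stricter filter and without the 3 arrays that stood apart. With slide as a term 11 of them lost their call and 3 turned to the opposite sign. Within slide 2, where 1 NCE array stands for its group, 3 turned as well. Of these 24, 12 lost their call without NCE replicate 2 and 9 without NCE replicate 3. By the methods' t-test 17 lost it, and without the filter on dim probes 4 did. The replicate block gave 156 rises and 95 falls (222 calls among probes kept through both groups) and ended 9 calls, A_19_P00317272, A_19_P00323819, A_19_P00319095 and A_19_P00808382 among them, but none of these 24. Counts of rises, falls and calls kept through both groups were 19, 14 and 27 with slide as a term and 0, 0 and 0 by limma within slide 2, where 1 NCE array is assumed to vary like the CYGB+ replicates and 120 probes had an unadjusted p under 0.05. They were 196, 94 and 218 with arrays as correlated blocks (23.6% of all kept probes called). By the methods' t-test at their false discovery rate they were 35, 15 and 34 (4.04%). Scaling to the 75th percentile gave 61 and 33, background-subtracted signals 149 rises while 59 rises were called among 1197 lincRNA probes in the deposited value table. Leaving out each replicate gave 13 to 94 rises, 7 to 61 falls and 19 to 128 calls kept through both groups.

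After the data were seen, the 3 arrays with a median r under 0.95 were left out. The counts were 218, 120 and 282 without them, 155, 92 and 206 without the first array of CYGB+ replicate 1, and 88 falls without the second array of NCE replicate 3. They were 161 rises and 213 calls kept through both groups within slide 2 without them, and 295, 100 and 326 with slide as a term without them. The cause was not tested. Within slide 2 without these arrays, falls were called as well as rises, and probes outside the lincRNA set were also called. Both settings that take slide into account rest on 1 NCE array on slide 2, so no call is read from their counts.

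The CYGB difference turned to 0.03 without NCE replicate 2, 0.22 without CYGB+ replicate 1, 0.032 in the value table, 0.093 without the second array of CYGB+ replicate 3 and 0.0029 within slide 2 without the arrays apart, with adjusted p of 0.42 or more. It was -0.311 without CYGB+ replicate 2. With slide as a term, within slide 2, and in both without the arrays apart, A_19_P00330038 turned to 0.42, 0.32, 0.78 and 0.74, A_19_P00324411 to 0.53, 0.41, 0.95 and 0.85, and A_19_P00806410 to 0.44, 0.33, 0.86 and 0.80. All of these rest on 1 NCE array on slide 2, so no call is read from them. A_19_P00328785 turned to 0.073 with slide as a term without the arrays apart.

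With 1 array enough per replicate, 31.5% of lincRNA probes were detected in NCE (21.8% in the main rule) and 34.1% in CYGB+ (23.1%).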
